A study of Mus musculus with 12 samples.

Results

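The nuclear genes of the mitochondrial respiratory chain and ATP synthase were examined in mouse B lymphoma cells with and without a B cell receptor (BCR). Members were chosen by name, as array probe sets with a single gene symbol that starts with Nduf, Uqcr or Atp5, or names a Cox4 to Cox8 subunit, or is Sdhb, Sdhc, Sdhd, Cyc1 or Cycs. Pseudogenes were left out, and where a gene had several probe sets the brightest by mean over the 12 arrays was used. The rule gave 89 genes, read by 123 probe sets, among 18820 genes with a single-symbol probe set. A filter on dim signals kept 85 of the 89 and 12961 genes in all. The 4 members that did not pass, Ndufa4l2, Cox6b2, Cox7b2 and Cox8b, are given as values only. By complex, the tested members were 6 core and 28 accessory subunits of complex I, 7 complex I assembly factors that share the Nduf prefix, 3 subunits of complex II, 8 of complex III, cytochrome c, 15 of complex IV and 17 of ATP synthase. Ndufa4 and Ndufa4l2 were placed with complex IV.

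The respiratory chain passes electrons from NADH through complex I and from succinate through complex II to coenzyme Q, then through complex III and the small carrier cytochrome c to complex IV, which reduces oxygen. Complexes I, III and IV pump protons across the inner mitochondrial membrane, and ATP synthase uses the return flow of protons to make ATP. The members studied are encoded in the nucleus and imported, while a few central subunits of complexes I, III, IV and ATP synthase are encoded by mitochondrial DNA. Dividing B cells and MYC-driven lymphomas are known for active mitochondrial respiration.

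All groups came from cultures of primary lymphomas of l-MYC;B1-8f mice (strain C57BL/6J x BALB/c), which bear a MYC transgene together with a B1-8 heavy chain that Cre recombinase can delete. Cell-permeable TAT-Cre removed the receptor, and cells were sorted by flow cytometry from mixed cultures after 4 days. The 4 groups were BCR-negative cells treated with CHIR99021, which inhibits the kinase GSK3, and untreated BCR-independent, BCR-negative and BCR-positive cells. BCR-independent cells arose from BCR-negative tumours kept in culture for a long time, and each array of this group holds 1 clone (clone 8 of tumour 2567, clone 7 of tumour 2646 and clone 1 of tumour 2676), grown with BCR-positive cells of its own tumour. The 3 tumours gave 1 array each in every group. The dose of CHIR99021, the ages of the mice and the promoter of the transgene are not stated in the labels. In the titles, the untreated BCR-negative and BCR-positive arrays of tumours 2646 and 2676 end in (2), and the labels leave this mark unexplained. The other 8 arrays carry none. In those tumours, therefore, treatment and the mark cannot be told apart, and tumour 2567 alone compares treated with untreated BCR-negative cells without it. The same holds for BCR-independent cells against untreated BCR-negative or BCR-positive cells.

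Values are log2 signals, so a difference of 1 is a doubling. Array medians lay between 3.32 and 3.44. Ighv1-72, the heavy chain variable segment of B1-8, read 4.93 to 6.26 in treated, 3.72 to 4.21 in BCR-independent, 5.85 to 6.97 in BCR-negative and 9.45 to 9.97 in BCR-positive cells, highest on the 3 BCR-positive arrays. The B cell genes Cd79a, Cd79b, Pax5, Cd22 and Ebf1 exceeded the array median on 12 of 12 arrays, and Ms4a1 on 0. Averaged over the 6 B cell markers measured, signal was 7.42 to 7.91 on treated and 7.83 to 8.39 on untreated BCR-negative arrays. Averages over 5 T cell markers were 3.11 to 3.20 on treated and 2.98 to 3.10 on untreated BCR-negative arrays. Over 6 macrophage or dendritic cell markers they were 3.14 to 3.18 on treated and 2.97 to 3.11 on untreated BCR-negative arrays, with 10 of these 11 markers at a median of 3.45 or below over the arrays and Cd8a at 3.67. Averages over 4 stroma markers were higher, at 3.91 to 4.47 on treated and 4.22 to 4.55 on untreated BCR-negative arrays. Of these, Col1a1, Col1a2 and Pecam1 exceeded the array median on 12 of 12 arrays, and Pdgfrb on 0. The 4 granulocyte markers and the erythroid marker Alas2 exceeded it on 0. The part of these T cell, macrophage, stroma and other markers in the results was not tested. These are bulk samples, in which fewer cells of a type and less RNA per cell cannot be told apart. Nothing in the labels says that the arrays of a tumour came from separate cultures, so the p-values cover only the spread among these arrays.

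Promoters are shown for the 3 genes of the ATP synthase c subunit and for cytochrome c. These c-subunit genes had unequal measured changes, which were not tested against each other, and cytochrome c is the mobile carrier. The c subunit forms the rotating ring of ATP synthase, and Atp5g1, Atp5g2 and Atp5g3 encode the same mature protein behind different import sequences. RefSeq (GRCm38.p6) windows of 300 bases, most of them before the start of the gene, were available for 73 of 89 members. Those of Atp5g1 (chr11:96075582-96075881), Atp5g2 (chr15:102670998-102671297), Atp5g3 (chr2:73911277-73911576) and Cycs (chr6:50566520-50566819) all lie on the minus strand and are printed 5′ to 3′ on that strand. Capitals mark matches on either strand to an E-box (CACGTG), the motif of MYC, to the NRF1 motif (GCANGCGC) or to the ERR motif (AAGGTCA).
Atp5g1: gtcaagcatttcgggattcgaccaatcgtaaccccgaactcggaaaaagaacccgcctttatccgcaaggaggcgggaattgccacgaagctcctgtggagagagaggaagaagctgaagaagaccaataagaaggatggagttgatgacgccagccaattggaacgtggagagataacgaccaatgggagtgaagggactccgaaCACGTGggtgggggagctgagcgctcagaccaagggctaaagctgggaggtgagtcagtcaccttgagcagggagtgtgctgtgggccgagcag
Atp5g2: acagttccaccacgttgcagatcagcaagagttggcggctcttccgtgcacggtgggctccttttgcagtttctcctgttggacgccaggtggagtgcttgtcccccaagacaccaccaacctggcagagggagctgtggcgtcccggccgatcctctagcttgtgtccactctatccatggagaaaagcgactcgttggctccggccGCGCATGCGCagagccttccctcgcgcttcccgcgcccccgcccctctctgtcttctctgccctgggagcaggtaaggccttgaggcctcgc
Atp5g3: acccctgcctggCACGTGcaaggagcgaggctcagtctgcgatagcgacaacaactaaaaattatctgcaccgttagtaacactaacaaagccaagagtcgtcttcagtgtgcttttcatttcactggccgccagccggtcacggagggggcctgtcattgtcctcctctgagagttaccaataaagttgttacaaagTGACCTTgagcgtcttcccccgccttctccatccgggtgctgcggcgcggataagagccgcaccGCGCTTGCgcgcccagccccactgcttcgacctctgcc
Cycs: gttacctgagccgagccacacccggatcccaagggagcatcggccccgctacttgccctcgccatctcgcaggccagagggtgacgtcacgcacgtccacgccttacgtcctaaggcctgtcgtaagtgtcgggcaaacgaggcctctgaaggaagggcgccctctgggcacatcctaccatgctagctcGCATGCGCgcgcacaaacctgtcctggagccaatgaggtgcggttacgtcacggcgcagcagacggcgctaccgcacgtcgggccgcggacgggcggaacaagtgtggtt
The Atp5g1 window held an E-box that begins at position -44 from the start and no other motif searched. Atp5g2 held a pair of overlapping NRF1 matches, at -42 and -40. Atp5g3 held an E-box at -238, an ERR match at -52 and an NRF1 match at 13, and Cycs an NRF1 match at -60. Over both strands, the E-box occurred in 6 of 73 members (8.22%) and in 8.91% of 17492 protein-coding genes. Some genes had several windows, and such a gene counted once if any of them held a match. NRF1 matches occurred in 29 members (39.7%, against 14.2% of these genes), ETS matches (CCGGAAG) in 18 (24.7%, against 12.9%), ERR matches in 8 (11%, against 4.73%) and YY1 matches (AAGATGGC) in 10 (13.7%, against 3.57%). Ndufb6 had an ETS match and Cox7a2l none of the 5 motifs. A match describes letters, not binding.

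The comparison of CHIR99021-treated with untreated BCR-negative cells addresses what GSK3 inhibition does in cells that lack the receptor. Of 85 tested members, 65 read higher (76.5%, against 56.8% of all genes) and 20 lower in treated cells, with small differences. Only Atp5g1 passed the test (limma with tumour as a block, Benjamini-Hochberg adjusted p under 0.05 over all genes), while 1.91% of all genes did. The median log2 change of the members was 0.12, with 0.18, 0.085 and 0.095 in tumours 2567, 2646 and 2676. Over all genes tested the median was 0.026, with 0.061, 0.020 and 0.0045 in the same tumours. In all 3 tumours 45 members were higher (25.7% of all genes were) and 6 lower (15.8% of all genes were). At an unadjusted p under 0.05, 22 members were higher, which is 25.9% of them against 10.4% of all genes. A further 3 were lower, against 6.20% of all genes. That excess did not hold in every setting, since with tumour 2567, 2646 or 2676 left out 8.24%, 2.35% and 10.6% of members were higher at this level, against 8.01%, 5.17% and 7.69% of all genes. With the title mark as a term in the fit the shares were 7.06% of members and 10.2% of all genes. The median stayed above that of all genes in each of these fits. Without a tumour it lay between 0.093 and 0.14, against 0.013 to 0.039 for all genes, and with the mark it was 0.12 against 0.059. The low number of members at an unadjusted p under 0.05 in the other direction did not hold in every setting either. Without tumour 2567 as many members, 7, were lower as higher (8.24%, against 7.65% of all genes), and with array weights 8 were lower (9.41%, against 11.5%).

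**Figure D1:**
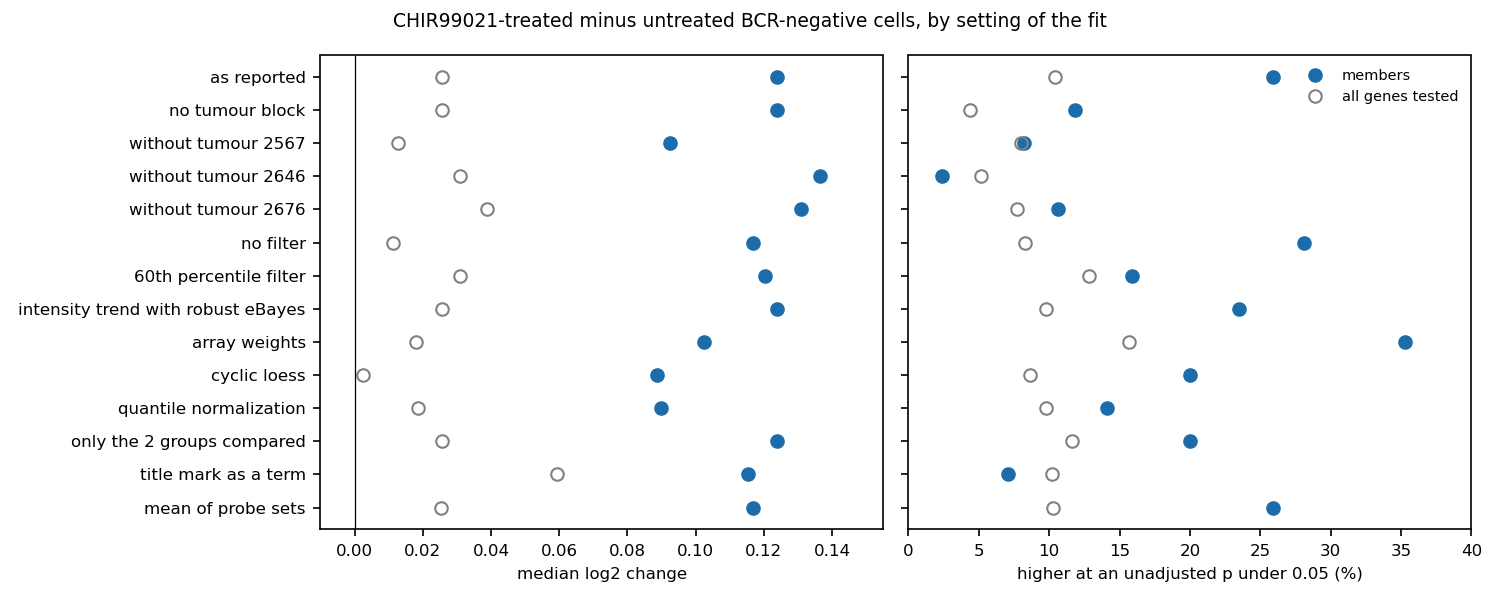
Left, median log2 change (treated minus untreated BCR-negative cells) and right, percentage of genes higher at an unadjusted p under 0.05, for the members (filled) and all genes tested (open) under each setting of the fit. The members' median lies right of that of all genes in every row, between 0.089 and 0.14, while in the right panel the filled point lies left of the open one without tumour 2646 and with a term for the title mark.

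The c-subunit genes had unequal measured changes, without a test between them. Atp5g1 read 10.43, 10.24 and 10.18 in treated cells of tumours 2567, 2646 and 2676, against 9.70, 9.83 and 9.61 in untreated BCR-negative cells. The BCR-independent cells read 9.69, 9.99 and 9.84 and the BCR-positive cells 9.99, 9.86 and 9.93. All 3 treated arrays were above all 9 others. Atp5g1 rose by 0.57 (SE 0.11, 95% interval 0.33 to 0.81, adjusted p = 0.0381), a 1.48-fold change, with 10.28 ± 0.13 in treated and 9.71 ± 0.11 in untreated BCR-negative cells (SD, n = 3). It was higher in 3 of 3 tumours, by 0.74 in tumour 2567, where neither array carries the title mark, and by 0.41 and 0.56 in tumours 2646 and 2676. Its second probe set differed by 0.51. The call was lost with each tumour left out (changes of 0.49 to 0.65, adjusted p = 0.115 to 0.342), without the tumour block (adjusted p = 0.141), with only these 2 groups in the fit (adjusted p = 0.0616) and with a term for the title mark (0.55, adjusted p = 0.183).

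Atp5g3 read 9.12, 8.95 and 9.04 in treated and 9.08, 8.62 and 8.70 in untreated BCR-negative cells, a difference of 0.24 (SE 0.10, adjusted p = 0.274) that was small in tumour 2567. Atp5g2 read 9.52, 9.65 and 9.89 in treated and 9.39, 9.89 and 10.01 in untreated BCR-negative cells, a difference of -0.07 (SE 0.11, adjusted p = 0.829) with groups that overlap. Within tumours, the difference of Atp5g1 exceeded that of Atp5g2 by 0.60, 0.65 and 0.69, and that of Atp5g3 by 0.69, 0.085 and 0.23. The first gap was alike in the 3 tumours and the second rested mostly on tumour 2567. Neither was tested.

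**Figure D2:**
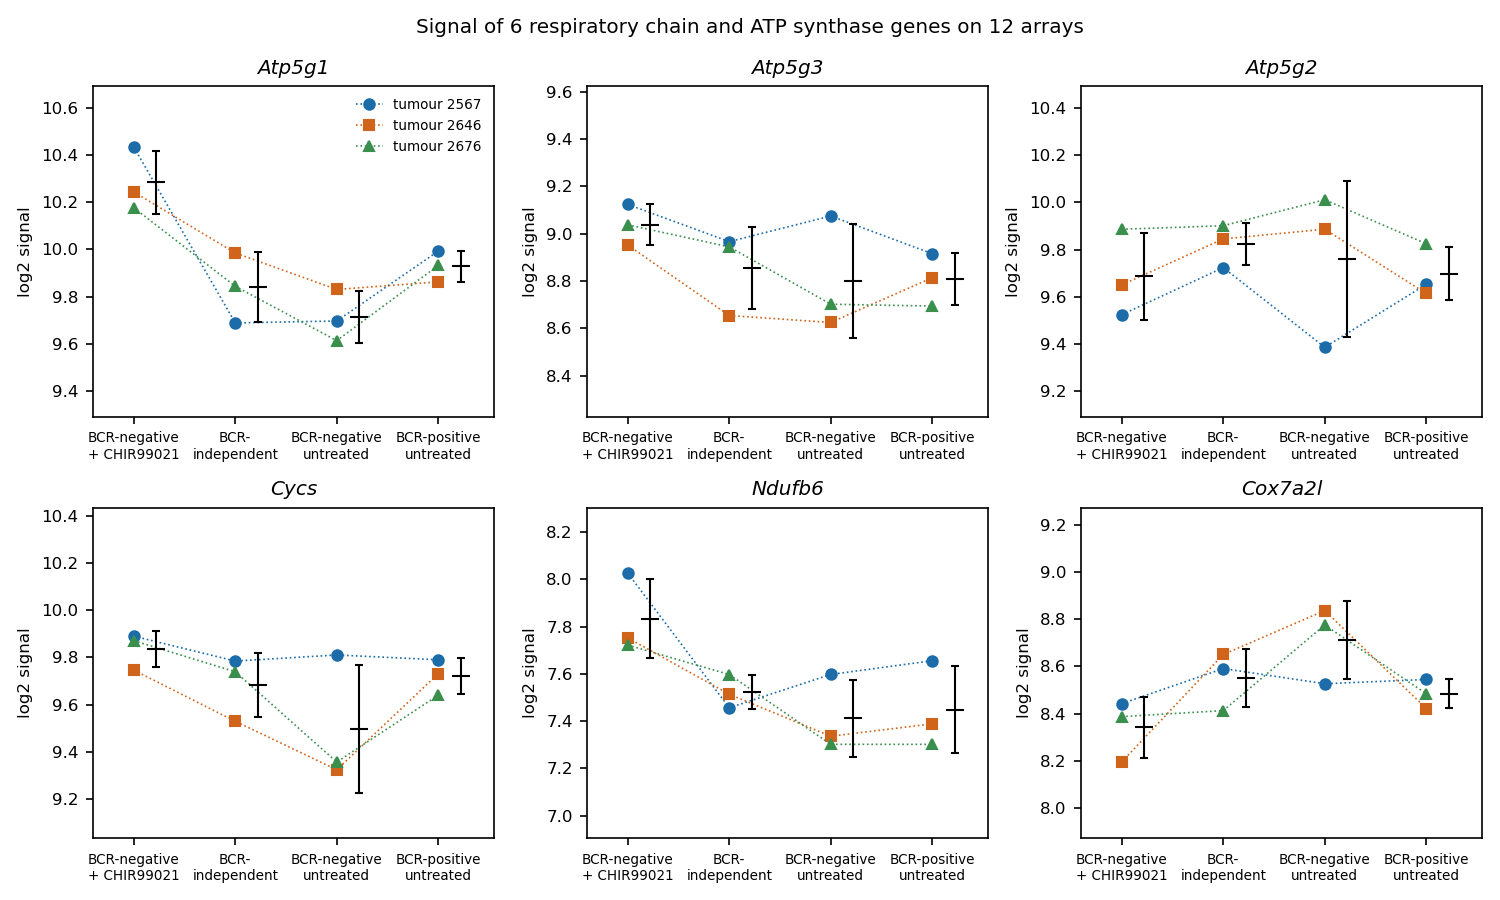
Log2 signal (y axis) of Atp5g1, Atp5g3, Atp5g2, Cycs, Ndufb6 and Cox7a2l on each of the 12 arrays, by group (x axis), with dotted lines joining the arrays of a tumour and black bars for the mean ± SD of 3 arrays. The treated arrays of Atp5g1 (10.18 to 10.43) stand above all others, those of Ndufb6 likewise (7.72 to 8.03), and Cycs and Cox7a2l differ between treated and untreated BCR-negative cells mainly in tumours 2646 and 2676.

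Among the other ATP synthase genes, 14 of the 17 subunits were higher in treated cells counting Atp5g1 and Atp5g3, with a median change of 0.15 and tumour medians of 0.13, 0.16 and 0.16. At an unadjusted p under 0.05, 7 of the 17 were higher, where 10.4% of all genes were. All 7 were higher in 3 of 3 tumours, which their selection by a small p already makes likely. Atp5b, the catalytic beta subunit, read 10.88, 10.91 and 10.79 in treated and 10.76, 10.62 and 10.66 in untreated BCR-negative cells, groups that do not overlap, and its difference of 0.18 (SE 0.080) had an adjusted p of 0.296. Atp5a1, the alpha subunit that alternates with beta in the catalytic head, differed by 0.15 (SE 0.079, adjusted p = 0.407). Atp5d of the central stalk (0.23), Atp5pb (0.20) and Atp5o (0.20) of the peripheral stalk and Atp5l of the membrane part (0.22) made up the rest of the 7, with adjusted p from 0.264 to 0.297. Atp5e, the epsilon subunit of the central stalk, had the most negative value of the complex at -0.16 (adjusted p = 0.434), and was 0.034 higher in tumour 2567.

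In complex I, the entry point for NADH, 0 of 34 subunits and 0 of 7 assembly factors passed the test by limma. At an unadjusted p under 0.05, 5 subunits and 2 assembly factors were higher and 1 of each lower. Over all genes, 10.4% were higher and 6.20% lower at this level. The core subunits had a median change of 0.07, with 5 of 6 higher. Ndufs1, which carries iron-sulfur clusters of the NADH-oxidising arm, read 7.50, 7.31 and 6.96 in treated and 7.21, 6.89 and 6.83 in untreated BCR-negative cells, a difference of 0.28 (SE 0.11, adjusted p = 0.246). Ndufv1, which binds NADH and flavin, differed by -0.05 (SE 0.10, adjusted p = 0.878), so the core subunits did not all share a direction.

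The accessory subunits had a median of 0.11 and the widest spread of the subunit classes, -0.42 to 0.42, with 19 of 28 higher. Ndufb6, an accessory subunit of the membrane arm, read 8.03, 7.75 and 7.72 in treated cells and 7.60, 7.34 and 7.30 in untreated BCR-negative cells. Its 3 treated arrays were above all 9 others, and the difference was nearly equal in the 3 tumours (0.43, 0.42 and 0.42). The fitted change of 0.42 (SE 0.10, 95% interval 0.19 to 0.65) had an adjusted p of 0.0795, the smallest among members that missed the test. Ndufs6 (0.31) and Ndufa8 (0.32) were higher in 3 of 3 tumours, with adjusted p = 0.149 and 0.159. Ndufa6, an accessory subunit of the matrix arm, read 7.54, 7.35 and 7.38 in treated and 7.68, 8.02 and 7.83 in untreated BCR-negative cells, and was lower in 3 of 3 tumours at -0.42 (SE 0.15, adjusted p = 0.201).

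The assembly factors, which help to build complex I without staying in it, spread further. Ndufaf6 was 0.44 higher (SE 0.19, adjusted p = 0.279) and Ndufaf7 0.31 higher (SE 0.12, adjusted p = 0.253), each in 3 of 3 tumours. Ndufaf3 read 5.08, 5.56 and 5.44 in treated and 5.32, 5.98 and 6.28 in untreated BCR-negative cells, at -0.50 (SE 0.20, adjusted p = 0.258). Without these 7 genes, the remaining 78 members had a median of 0.12, with 60 higher.

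In complex II, Sdhc, the membrane anchor that helps to hold the coenzyme Q site, read 7.43, 7.98 and 7.06 in treated and 6.90, 7.16 and 6.92 in untreated BCR-negative cells. Its difference of 0.50 (SE 0.18, adjusted p = 0.207) was large in tumour 2646 (0.82) and small in tumour 2676 (0.15). The other anchor, Sdhd (0.14), and the iron-sulfur subunit Sdhb (0.10) were also higher in 3 of 3 tumours, with adjusted p = 0.677 and 0.672. Sdha, the flavoprotein subunit, is outside the naming rule and differed by 0.11 (SE 0.13, adjusted p = 0.781).

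Complex III had the highest median change of the complexes with several tested members, 0.23, with 7 of 8 higher and tumour medians of 0.26, 0.21 and 0.12. Uqcrfs1, the Rieske iron-sulfur protein, read 7.53, 7.45 and 7.34 in treated and 7.26, 7.19 and 7.15 in untreated BCR-negative cells, groups that do not overlap (0.24, SE 0.085, adjusted p = 0.191). The core protein Uqcrc1 (0.29) and cytochrome c1, Cyc1 (0.24), were higher in 3 of 3 tumours, with adjusted p = 0.232 and 0.275. None of the 8 passed the test by limma, and 3 were higher at an unadjusted p under 0.05, where 10.4% of all genes were.

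Cycs, the cytochrome c of somatic cells and also a signal in apoptosis, read 9.89, 9.75 and 9.87 in treated cells, against 9.81, 9.32 and 9.36 in untreated BCR-negative cells. The BCR-independent cells read 9.78, 9.53 and 9.74 and the BCR-positive cells 9.79, 9.73 and 9.64. The untreated BCR-negative arrays of tumours 2646 and 2676, both with the title mark, were thus the lowest of the 12, and tumour 2567 differed little among groups. The BCR-positive arrays of tumours 2646 and 2676 carry the mark too, and read 9.73 and 9.64. The change under CHIR99021 was 0.34 (SE 0.11, 95% interval 0.10 to 0.58, adjusted p = 0.140), with 0.080, 0.42 and 0.51 in tumours 2567, 2646 and 2676. The 3 probe sets of Cycs gave 0.23 to 0.34.

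Complex IV had 11 of 15 tested subunits higher and the second lowest median among the classes, 0.08. Cox5b, a matrix-side subunit, read 8.61, 8.55 and 8.56 in treated and 8.37, 8.27 and 8.29 in untreated BCR-negative cells, a difference alike in the 3 tumours (0.26, SE 0.093, adjusted p = 0.193). Cox8a (0.26) and Ndufa4 (0.20) were higher in 3 of 3 tumours, with adjusted p = 0.211 and 0.279. The early-assembly subunits Cox4i1 (-0.02) and Cox5a (0.04) had adjusted p = 0.969 and 0.893. Cox7a2l is known for joining complexes III and IV into supercomplexes, a role not examined in these cells. Its signal was 8.44, 8.20 and 8.39 in treated and 8.53, 8.84 and 8.78 in untreated BCR-negative cells. It was lower in 3 of 3 tumours at -0.37 (SE 0.12, adjusted p = 0.143), its second probe set gave -0.34, and the difference in tumour 2567 was -0.084.

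**Figure D3:**
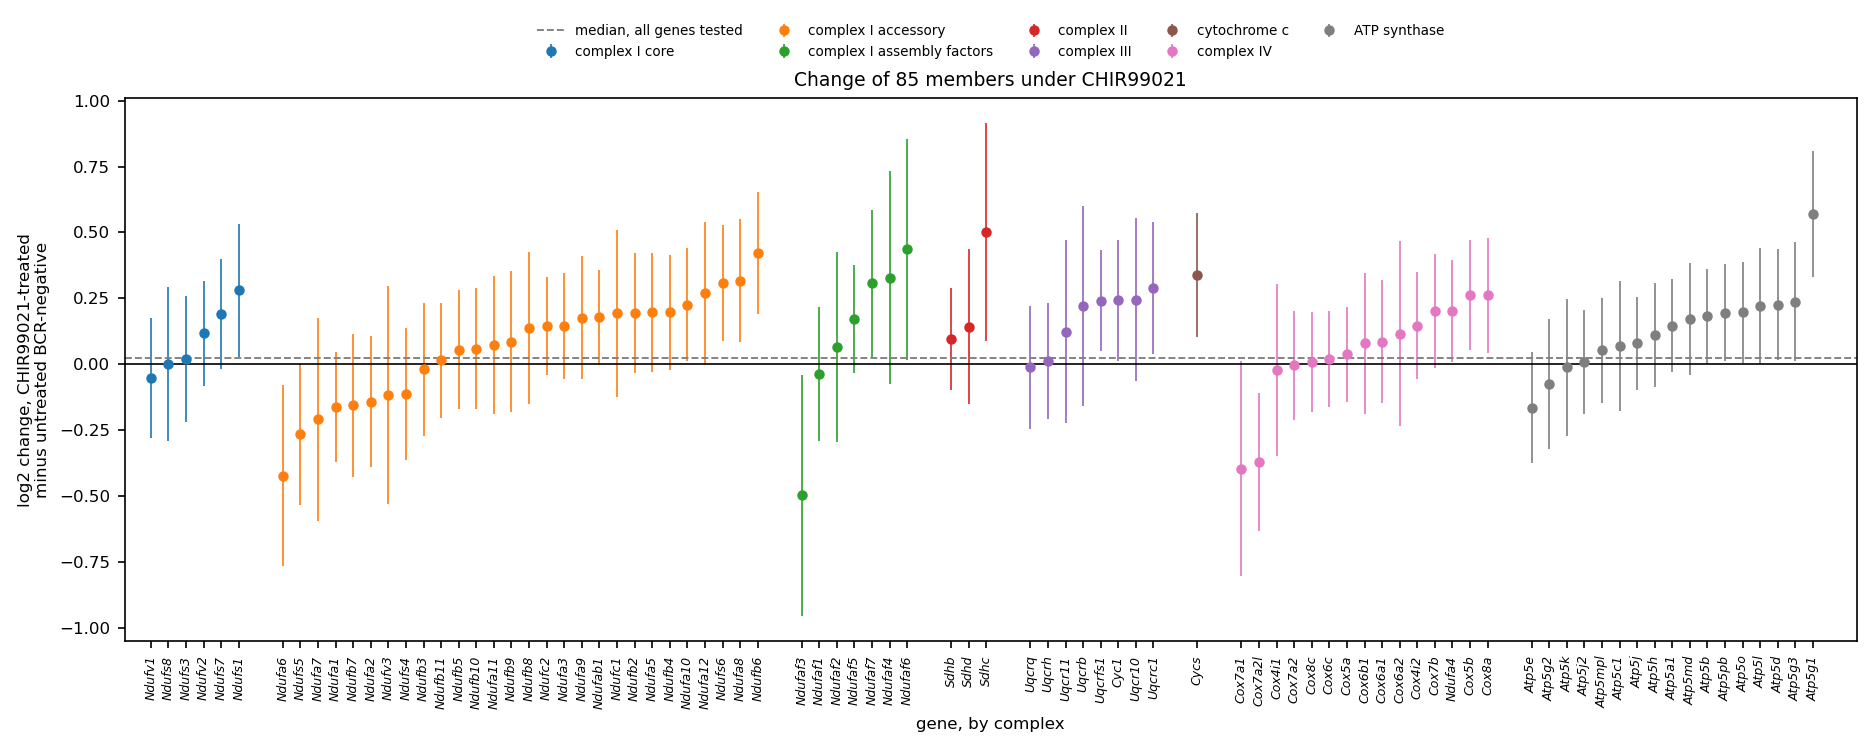
Fitted log2 change (y axis, treated minus untreated BCR-negative cells) of the 85 tested members with 95% intervals, ordered within each complex (x axis, coloured by class), with a dashed line at the median of all genes tested (0.026). Atp5g1 at the far right is the one member that passed the test, and the lowest values are Ndufaf3 (-0.50), Ndufa6 (-0.42), Cox7a1 (-0.40, but 0.054 with a term for the title mark) and Cox7a2l (-0.37).

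The isoforms of complex IV known from heart and muscle, testis or hypoxia lay below, near or above the array medians (3.32 to 3.44). Cox6b2, Cox7b2 and Cox8b were below them, at most 3.12 on any of the 12 arrays. Cox8c and Cox4i2 were near them, with averages of 3.48 and 3.61, and Cox7a1 and Cox6a2 above, with averages of 4.82 and 5.01. Cox7a1, the heart and muscle isoform, read 4.60, 4.65 and 4.56 in treated and 4.60, 5.02 and 5.39 in untreated BCR-negative cells (-0.40, SE 0.18, adjusted p = 0.319). Its difference was 0.0048 in tumour 2567 and -0.37 and -0.82 in tumours 2646 and 2676, the pair whose untreated arrays carry the title mark, and with a term for the mark its sign turned (0.054, adjusted p = 0.917). Cox6a2 differed by 0.12 (adjusted p = 0.806). Ndufa4l2, a hypoxia-induced relative of Ndufa4, read 7.30 on the BCR-independent array of tumour 2567 (clone 8), where the other 11 arrays lay between 2.61 and 3.0. A single array carried this signal, so it was not tested.

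The comparison of untreated BCR-negative with BCR-positive cells addresses what loss of the receptor changes. The members were evenly split, with 43 higher (49.7% of all genes were) and 42 lower in BCR-negative cells. Their median was 0.0028 (-0.00093 over all genes), and it was -0.024 without tumour 2676 and -0.0073 with the mean of probe sets. By limma 0 of 85 passed the test (0.00772% of all genes), and at an unadjusted p under 0.05 0 were higher (1.47% of all genes) and 1 was lower (1.71% of all genes). That gene was Cox4i2 (-0.26, adjusted p = 0.999), close to the array medians. The 95% interval lay within 0.5 of zero for 79 of the 85, and reached a median of 0.23 on either side, so larger differences of most members are outside these intervals.

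In each class the member with the smallest p had an adjusted p of 0.999 here. Atp5g1 was at -0.22 (SE 0.11), with 9.71 ± 0.11 in BCR-negative and 9.93 ± 0.07 in BCR-positive cells (SD, n = 3), and was lower in 3 of 3 tumours (-0.30, -0.032 and -0.32). Cycs was at -0.22 (SE 0.11), with 0.020, -0.41 and -0.28 in tumours 2567, 2646 and 2676. For complex I they were Ndufs1 (-0.15), Ndufb5 (0.13) and the assembly factor Ndufaf1 (0.25), and for complexes II and III Sdhc (-0.12) and Uqcr11 (-0.26). This comparison shares its untreated BCR-negative arrays with the one under CHIR99021, so low or high readings there enter both.

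The comparison of BCR-independent with BCR-negative cells addresses what sets apart clones that persist without the receptor. Of 85 members 49 were higher (57.65%, against 55.29% of all genes) and 36 lower in BCR-independent cells. The median was 0.035 (0.017 over all genes), with tumour medians of -0.056, 0.12 and 0.025. The tumours thus differed in sign, and without tumour 2646 the median was -0.014, with 40 of 85 higher. With a term for the title mark, which the BCR-negative arrays of tumours 2646 and 2676 carry, the members' median was 0.010. That was below the median of all genes in the same fit, 0.045. By limma 0 members passed the test (0.00772% of all genes). At an unadjusted p under 0.05 2 were higher (3.60% of all genes) and 2 lower (2.38%), and in 3 of 3 tumours 15 were higher (16.0% of all genes) and 5 lower (10.3%). Ndufb4, an accessory subunit of complex I, read 8.41, 8.14 and 8.08 in BCR-independent and 7.95, 8.03 and 7.75 in BCR-negative cells (0.30, SE 0.10, adjusted p = 0.796). Ndufaf7 was also at 0.30, Ndufa2 at -0.28 and Ndufb5 at -0.24, each with an adjusted p of 0.814 and the same direction in 3 of 3 tumours. Named as the smallest p of their classes, Atp5h of the ATP synthase stalk was at 0.19, Cox4i2 at 0.19, Cycs at 0.19, Sdhc at 0.22, Uqcrc1 at 0.14 and Ndufs1 at 0.13, with adjusted p from 0.814 to 0.890. The interval lay within 0.5 of zero for 77 of 85.

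**Figure D4:**
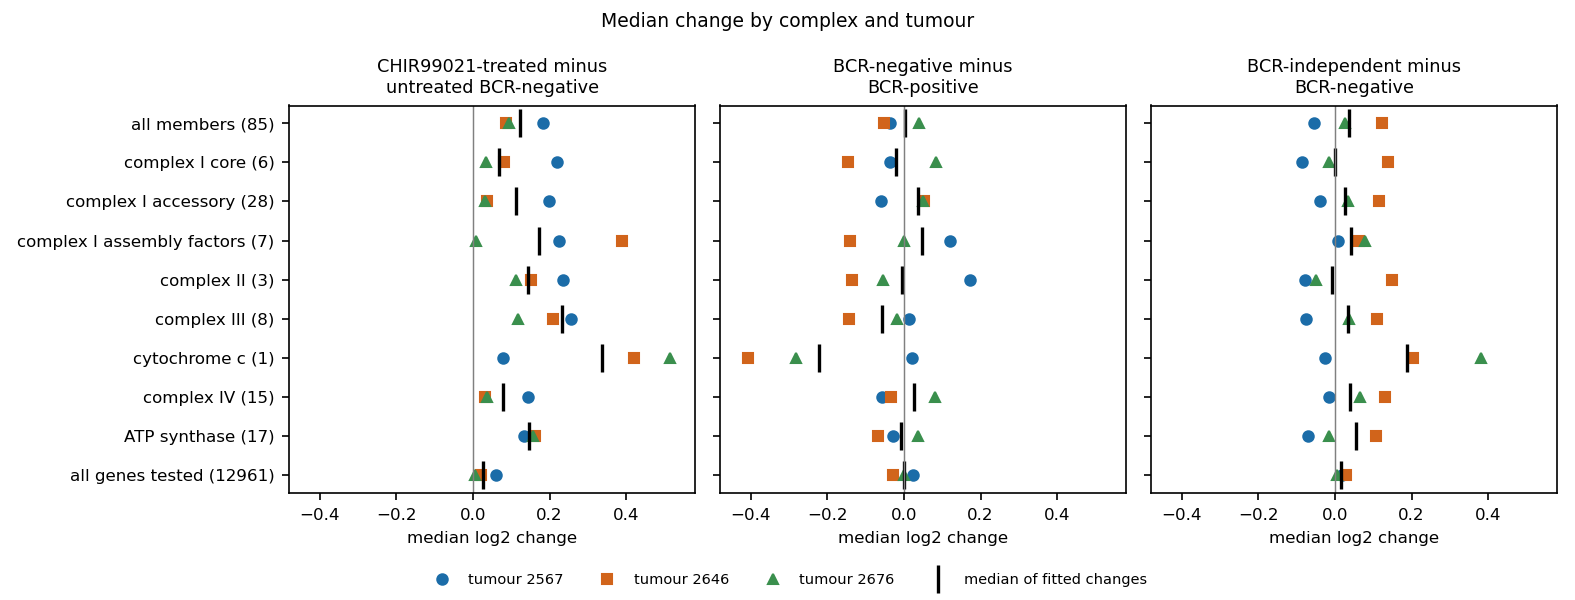
Median log2 change (x axis) of the tested members of each complex (y axis, number of genes in parentheses) in tumours 2567, 2646 and 2676 (coloured points) and over the fitted changes (black bars), for 3 comparisons. In the left panel all points lie at or above 0, and in the middle and right panels they fall on both sides, with tumour 2646 highest for all members (0.12) in the right panel.

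In the remaining comparisons 0 members passed the test by limma. For treated against BCR-independent cells (0.162% of all genes passed) the median was 0.11 (0.010 over all genes), with 59 of 85 higher (69.4%, against 52.8% of all genes). Without tumour 2567 this median was 0.030, with 47 of 85 higher. Atp5g1 differed by 0.44 (SE 0.11, adjusted p = 0.149), higher in 3 of 3 tumours. For treated BCR-negative against BCR-positive cells (0.802% of all genes passed) the median was also 0.11 (0.029 over all genes), with 66 higher (77.7%, against 57.2% of all genes), Atp5g1 at 0.36 (adjusted p = 0.150) and Cycs at 0.12 (adjusted p = 0.675). For BCR-independent against BCR-positive cells (0.0849% of all genes passed) the median was 0.020 (0.022 over all genes), with 48 higher (56.5%, against 55.7% of all genes), so the members were close to all genes. With a term for the title mark this median was -0.0042, against 0.041 over all genes. These comparisons share arrays with the first 3. For Atp5g1, the treated group was thus above each of the 3 untreated groups, by 0.44, 0.57 and 0.36 over BCR-independent, BCR-negative and BCR-positive cells.

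Tumour identity weighed on the members as it did on other genes. A median of 38.9% of a member's sum of squares over the 12 arrays lay between tumours (39.8% over all genes) and 25.9% between groups (20.6% over all genes). In 48 of 85 members the tumours held the larger share, a count that was not made for all genes. Noise alone adds to both shares, more to that of the 4 groups than to that of the 3 tumours. No correction was made for this, so the shares do not measure what tumour or group explains. Uqcrb, a small subunit of complex III, averaged 9.76, 9.92 and 8.93 in tumours 2567, 2646 and 2676, the widest gap among the tested members. Atp5g1 was the opposite, with 82.8% between groups and 2.54% between tumours.

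Other genes of the pathway were followed by role. Of 36 listed assembly factors of the respiratory chain and ATP synthase outside the naming rule, 33 were tested, and 26 were higher and 7 lower in treated than in untreated BCR-negative cells, with a median of 0.18 (0.026 over all genes) and 78.8% higher (56.8% of all genes). By limma 0 passed the test (1.91% of all genes did). At an unadjusted p under 0.05 10 were higher, which is 30.3% of them against 10.4% of all genes, and 1 was lower, against 6.20% of all genes. The fits in which the members' own excess was lost were not summarised for this list, so its excess was not checked there. Foxred1, an assembly factor of complex I, read 6.79, 6.92 and 6.59 in treated and 6.61, 6.16 and 6.06 in untreated BCR-negative cells (0.49, SE 0.12, adjusted p = 0.0795). It was higher in 3 of 3 tumours. Cox10, which makes the heme of complex IV, differed by 0.48 (adjusted p = 0.153), and Atpaf2, an assembly factor of the ATP synthase head, by 0.32 (adjusted p = 0.108).

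Among 15 tested of 18 listed regulators of mitochondrial biogenesis and mitochondrial DNA expression, 9 were higher (60%, against 56.8% of all genes). Their median was 0.038 (0.026 over all genes), and 1 passed the test, as 1.91% of all genes did. Lrpprc, which stabilises mitochondrial messenger RNAs, read 8.34, 7.98 and 7.94 in treated and 7.92, 7.42 and 7.51 in untreated BCR-negative cells. It rose by 0.47 (SE 0.095, adjusted p = 0.0480) in 3 of 3 tumours. This call ended in the settings that ended that of Atp5g1 (no tumour block, any tumour left out, only these 2 groups in the fit, a term for the title mark, with adjusted p = 0.0687 to 0.483). It also ended with an intensity trend (adjusted p = 0.0508) and with quantile normalization (adjusted p = 0.058), where the call of Atp5g1 held. Pprc1, a coactivator of these genes, differed by 0.44 (adjusted p = 0.145), in 2 of 3 tumours. Of 13 listed genes of coenzyme Q synthesis 12 were tested, with 8 higher (66.7%, against 56.8% of all genes). Their median was 0.06 (0.026 over all genes), and 0 were past the test by limma (1.91% of all genes were). At an unadjusted p under 0.05 Coq4 (0.31) and Coq5 (0.41) were higher and Coq8a lower (-0.35, adjusted p = 0.0778). Over all genes, 10.4% were higher and 6.20% lower at this level. The 13 subunits encoded by mitochondrial DNA were not analysed here. In BCR-negative against BCR-positive cells and in BCR-independent against BCR-negative cells 0 of these 60 tested genes passed the test by limma. In each of these comparisons 0.00772% of all genes passed it. At an unadjusted p under 0.05 there were 4 and 7 of the 60, where 3.19% and 5.99% of all genes were.

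Several probe sets passed the filter for 24 members, and their mean differences between treated and untreated BCR-negative cells had 1 sign in 18 members and both signs in 6. The 6 were Atp5o, Ndufa11, Ndufb11, Ndufb5, Ndufs3 and Uqcrh, whose values lay between -0.18 and 0.20. Genes with close copies, among them Atp5g1, Atp5g2 and Atp5g3, may share some signal with pseudogenes or with each other, and the array values do not separate it.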

How the data were processed

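RNA was measured on 12 Affymetrix arrays, 3 in each of 4 groups. The authors deposited log2 signals of 35556 probe sets. The submitters' processing notes name RMA and Affymetrix Power Tools, without versions. RMA compresses small differences between dim probe sets. No detection calls were used. Precision is limited by the number of arrays. A probe set was kept if it exceeded the 40th percentile of its array on at least 3 arrays, so dim genes could pass through 1 group. The tested members exceeded it on all 12 arrays. The test was limma 3.58.1 in R 4.3.3, with group and tumour as terms over 12 arrays and all 12961 genes (6 residual and 3.41 prior degrees of freedom), and adjusted p-values are Benjamini-Hochberg over all genes. Tumour numbers in the titles pair the arrays, whose residuals correlated at 0.284 to 0.792 within tumours and at -0.716 to 0.165 between them. These residuals had the mean of their group removed, which by itself pushes correlations between tumours below 0. Scripts were tested on simulated data. Named are members past the test, the smallest p per class in the 3 main comparisons, genes of fixed roles, and others chosen after their values were seen (Ndufs6, Ndufa8, Ndufa6, Uqcrc1, Cox5b, Cox8a, Ndufa4, Ndufaf3, Ndufaf6, Uqcrb, Ndufa2, Atp5d, Atp5pb, Atp5o, Atp5l, Atp5e, and from the lists Foxred1, Cox10, Atpaf2, Pprc1, Coq4, Coq5 and Coq8a). Members, lists and alternatives were chosen with earlier results of these data known. Gene symbols follow the platform annotation, updated through RefSeq. Alternatives were no tumour block, each tumour left out, no filter or a 60th percentile filter, cyclic loess, array weights, robust eBayes with an intensity trend, a fit to only the 2 groups compared, quantile normalization, a term for the title mark, and the mean of probe sets.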

Additional observations from a re-analysis of the deposited data

How the results depend on the processing

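Under the 13 alternatives, the median change of the members stayed above 0 in the 3 comparisons of treated cells (0.089 to 0.14 against BCR-negative, 0.080 to 0.14 against BCR-positive and 0.030 to 0.15 against BCR-independent cells). In the other 3 it was close to 0 and turned sign: to -0.014 without tumour 2646 in BCR-independent against BCR-negative, to -0.024 without tumour 2676 and -0.0073 with the mean of probe sets in BCR-negative against BCR-positive, and to -0.0042 with the title mark in BCR-independent against BCR-positive cells. The number of members past the test in treated against untreated BCR-negative cells, 1 as reported, was 0 without the tumour block (the fit that does not pair the arrays), 0 to 0 with each tumour left out, 0 with a term for the title mark and 0 when the fit held just the 2 groups. Fits with fewer arrays or an added term have fewer degrees of freedom, and for the others the cause was not tested. With array weights it was 11 (Atp5g1, Cycs, Atp5g3, Cox7a2l, Cox5b, Ndufa6, Ndufb6, Ndufs5, Ndufs6, Sdhc and Ndufaf3), in a fit where 1635 of all genes passed against 248 as reported. In the other settings it was 1. In the other 5 comparisons the number was 0 in each setting run. Some changes of single genes turned sign. In treated against untreated BCR-negative cells, Atp5g2 lay between -0.18 and 0.0065 with a tumour left out (highest without 2646) and at 0.0045 with the mark, Cox4i1 between -0.10 and 0.048 and Ndufv1 between -0.094 and 0.0098 (highest without 2676), and Cox5a at -0.015 with cyclic loess and -0.016 with the mark. Cox6a2 lay between -0.039 (without 2646) and 0.29. Cox7a1, at -0.40 as reported and thus not near 0, was at 0.054 with the mark. Cox8c was at -0.010, -0.0064, -0.018, -0.0045 and -0.050 without tumour 2646, without tumour 2676, with cyclic loess, with quantile normalization and with the mark. Sdhc in BCR-negative against BCR-positive cells lay between -0.25 and 0.038 (highest without 2676). With 3 arrays per group, a typical interval of 0.23 on either side limits what could be seen.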
